A study of Mus musculus with 69 samples.

Results

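The serum amyloid A genes Saa1, Saa2, Saa3 and Saa4 were followed in the lung of mice that had received nano-TiO2. They are 4 of 18656 genes tested on 69 two-colour Agilent arrays and are carried by 6 of 41174 probes, whose RefSeq accessions the array design lists as those of the 4 genes. The genes were chosen by measured values, because Saa3, Saa1 and Saa2 were among the largest differences between NRCWE-030 at 162 µg and the control on day 1. The Saa values of that comparison are therefore given as a description with no test. The same holds for those between materials and between days that use the same treated arrays. Other tests against the day 1 controls reuse the control arrays of that comparison, so they are not independent of the choice. Saa4 was added as the other protein-coding Saa gene of the cluster.

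Each array held lung RNA of 1 female C57BL/6 mouse, and the mice were 5 to 7 weeks old on arrival and were acclimatised for 1 to 3 weeks. A titanium dioxide nanoparticle, either NRCWE-025 or NRCWE-030, was instilled once into the trachea at 18, 54 or 162 µg per mouse. Controls received the vehicle alone, and the lung was taken on day 1 or day 28. The 14 groups held 5 mice each, except NRCWE-025 at 162 µg on day 28 with 4, and the 5 controls of a day served both materials. Lung RNA was labelled with Cy5 and a commercial pool of mouse RNA, the Universal Mouse Reference RNA, with Cy3, with no dye swap. The level of a gene is the log2 ratio of lung over reference, so it orders mice for 1 gene and not 1 gene against another. A piece of frozen lung holds many cell types, and a change in the number of cells of a type and in the RNA per cell cannot be told apart.

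Serum amyloid A proteins are small apolipoproteins that travel on high-density lipoprotein and are hallmarks of the acute phase response, the rapid change in secreted proteins that follows injury or infection. Cytokines of the interleukin-1, interleukin-6 and tumour necrosis factor families switch the genes on through NF-kappa B, C/EBP and STAT factors. In mice, Saa1 and Saa2 are classical liver acute phase genes, Saa3 is made largely outside the liver, in macrophages, fat cells and epithelium, and Saa4 is regarded as a constitutive member with little response.

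In RefSeq the 4 genes neighbour each other on chromosome 7, in the order Saa3, Saa4, the pseudogene Saa-ps, Saa1 and Saa2, between Saal1 and Hps5. The promoter windows below, 250 bases before to 50 bases after the annotated start in GRCm38.p6, are shown because 3 of the genes moved together on day 1 whereas Saa4 lay near background, and because Saa1 and Saa2 are near-identical copies. Capitals mark every match to the C/EBP motif TTGCNNAA on either strand.
Saa1, chr7:46742931-46743230, minus strand: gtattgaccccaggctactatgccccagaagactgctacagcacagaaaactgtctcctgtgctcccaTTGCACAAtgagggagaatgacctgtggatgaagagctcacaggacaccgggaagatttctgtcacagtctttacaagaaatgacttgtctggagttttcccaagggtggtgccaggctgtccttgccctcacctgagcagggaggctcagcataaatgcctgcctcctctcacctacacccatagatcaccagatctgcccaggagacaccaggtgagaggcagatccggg
Saa2, chr7:46751583-46751882, plus strand: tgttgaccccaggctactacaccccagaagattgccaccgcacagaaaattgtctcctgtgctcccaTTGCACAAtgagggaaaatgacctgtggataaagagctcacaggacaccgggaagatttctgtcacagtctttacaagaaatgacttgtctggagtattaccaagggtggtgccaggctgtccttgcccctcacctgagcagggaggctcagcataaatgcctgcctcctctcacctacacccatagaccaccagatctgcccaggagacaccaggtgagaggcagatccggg
Saa3, chr7:46715627-46715926, minus strand: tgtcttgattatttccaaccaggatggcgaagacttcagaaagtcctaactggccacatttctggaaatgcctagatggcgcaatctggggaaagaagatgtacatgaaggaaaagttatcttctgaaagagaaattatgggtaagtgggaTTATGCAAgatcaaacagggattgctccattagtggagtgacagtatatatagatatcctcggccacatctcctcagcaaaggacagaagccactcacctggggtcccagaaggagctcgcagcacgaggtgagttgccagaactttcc
Saa4, chr7:46732554-46732853, minus strand: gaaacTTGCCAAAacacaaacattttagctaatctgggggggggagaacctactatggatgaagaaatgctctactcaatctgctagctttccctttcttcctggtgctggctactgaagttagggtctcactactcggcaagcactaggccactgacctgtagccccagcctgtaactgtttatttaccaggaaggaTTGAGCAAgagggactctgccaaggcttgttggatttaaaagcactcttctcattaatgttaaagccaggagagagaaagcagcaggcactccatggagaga
The Saa3 window lies inside the annotated gene, whose span reaches further upstream. The Saa1 and Saa2 windows were identical at 287 of 301 aligned positions (95.3%), whereas the other pairs were identical at 45.9% to 51.3%. TTGCNNAA was the only motif found of 5 searched on both strands. It was present in 10.8% of 32851 RefSeq promoter windows of the same length. The match ended 175 bases before the start in Saa1 and 176 bases before it in Saa2. In Saa3 the match was on the opposite strand from -99 to -92, and Saa4 had a match from -245 to -238 and another on the opposite strand from -52 to -45. The motifs TATAAA, TTACNNAA, TTCNNNGAA (a STAT motif) and the kappa B consensus had no match in the 4 windows and were present in 13.6%, 9.18%, 8.3% and 8.46% of all windows. A match is a run of letters and not evidence of binding.

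Between 49.1% and 72.8% of probes were well above background in Cy5 on an array. The lung markers Sftpa1, Sftpb, Sftpc, Sftpd, Scgb1a1, Ager, Aqp5, Cldn18 and Foxj1 averaged a log2 ratio of 5.08 to 6.19 on every array. The Saa3 probe and the Saa1 probe A_52_P318673 were well above background on 69 of 69 arrays, the Saa2 probe on 60 and the Saa1 probe A_51_P361650 on 40. The Saa4 probes A_51_P142529 and A_52_P404329 were well above background on 13 and 7 arrays. No Saa probe was saturated in either dye on any array (0 of 69).

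On day 1, Saa1, Saa2 and Saa3 rose at 54 µg NRCWE-030. At 162 µg NRCWE-025 Saa2 passed the test narrowly (limma, adjusted p = 0.0424), and Saa1 and Saa3 lay just outside it (0.0532 and 0.0543). There, no Saa gene passed in 14 of the 20 fits that left out 1 mouse. At 18 µg of either material no Saa gene passed the test. Mice of 1 dose differed widely. On day 28, of the 4 genes, Saa3 alone had group means more than 1 log2 unit above control, and no Saa gene passed the test. Saa2 at 18 µg NRCWE-025 lay at that limit (0.995 ± 0.44, SE). Saa4 stayed close to the detection limit throughout.

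**Figure D1:**
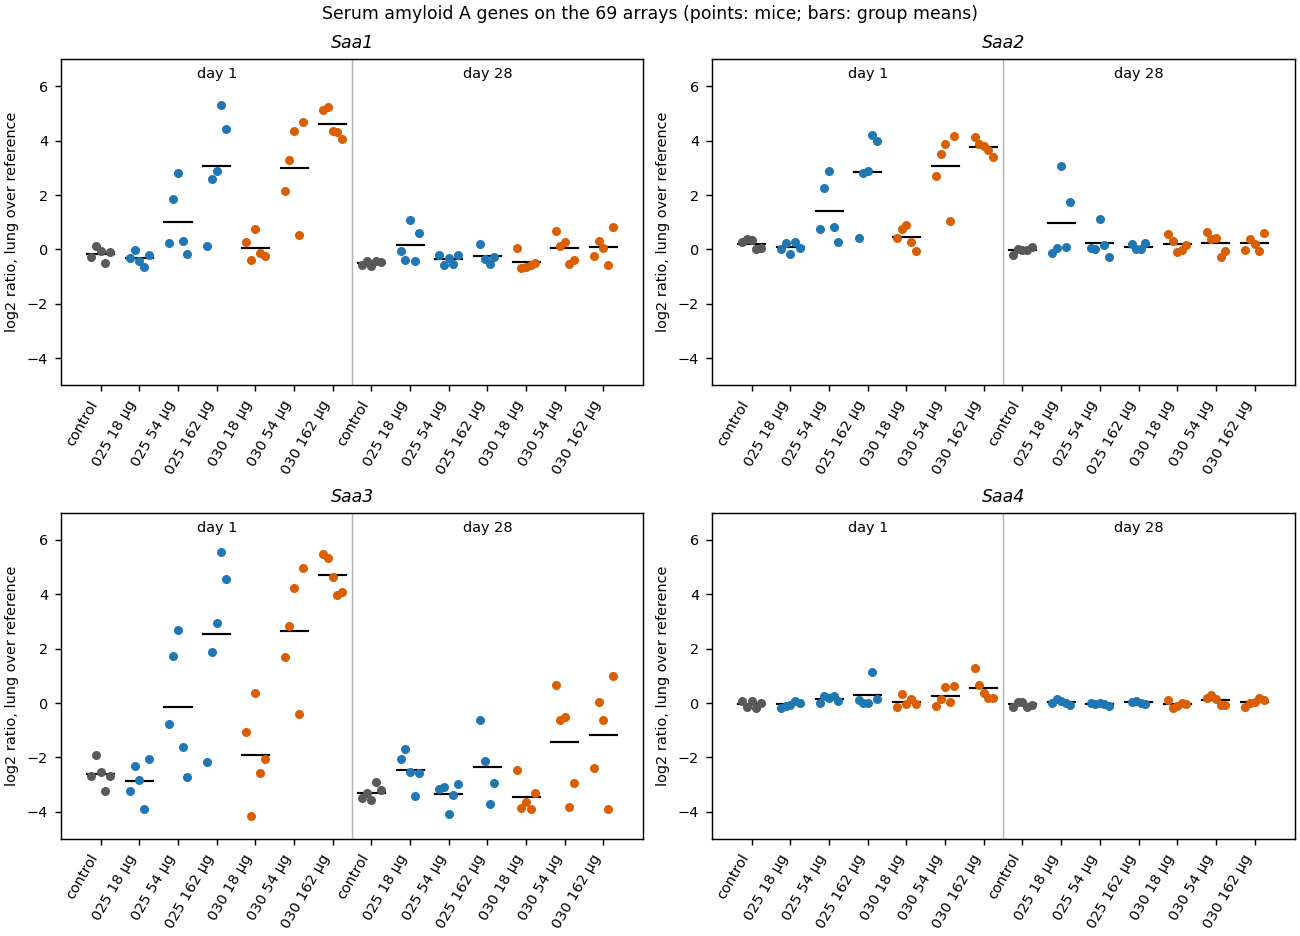
Log2 ratio of lung over reference RNA for Saa1, Saa2, Saa3 and Saa4 on the 69 arrays, by group and day. Points are mice and bars are group means. The 5 mice given 162 µg NRCWE-030 lie between 3.97 and 5.47 for Saa3 on day 1, whereas the 5 controls of that day lie between -3.25 and -1.91.

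Saa3, the gene with the largest differences, had log2 ratios of -2.68, -1.91, -2.55, -3.25 and -2.69 in the 5 day 1 controls. After 162 µg NRCWE-030 the values were 5.47, 5.34, 4.63, 3.97 and 4.07, and after 54 µg they were 1.69, 2.83, 4.22, -0.39 and 4.98. All 10 mice lay above every control, and the lowest of them was replicate 4 at 54 µg. At 18 µg the values were -1.07, -4.17, 0.38, -2.57 and -2.06, so that 2 mice lay above all controls and 1 below them. NRCWE-025 gave -2.18, 1.88, 2.93, 5.54 and 4.56 at 162 µg and -0.77, 1.72, 2.70, -1.63 and -2.71 at 54 µg. In each of these groups 4 mice lay above all controls and 1 lay within their range. At 18 µg of NRCWE-025 the values ran from -3.89 to -2.06, and 0 of 5 lay above all controls.

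Saa1 followed the same mice. The controls of day 1 had -0.28, 0.13, -0.07, -0.51 and -0.09, and the values were 2.16, 3.28, 4.34, 0.52 and 4.67 at 54 µg NRCWE-030 and 5.13, 5.24, 4.36, 4.31 and 4.05 at 162 µg. NRCWE-025 gave 0.13, 2.58, 2.90, 5.30 and 4.43 at 162 µg, where replicate 1 lay within the control range, and 0.22, 1.87, 2.80, 0.31 and -0.17 at 54 µg. Replicate 1 at 162 µg of NRCWE-025 and replicate 4 at 54 µg of NRCWE-030 were the lowest of their group for Saa1, Saa2 and Saa3 alike.

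Saa2 had 0.27, 0.38, 0.33, 0.02 and 0.06 in the day 1 controls. It reached 2.71, 3.49, 3.88, 1.06 and 4.18 at 54 µg NRCWE-030 and 4.15, 3.86, 3.82, 3.67 and 3.40 at 162 µg, where its SD of 0.27 (n = 5) was the smallest of the 3 responding genes. The reference signal at the Saa2 probe was also higher in the mice at 162 µg NRCWE-030, as given below. Its part in the SD was not tested. NRCWE-025 gave 0.43, 2.81, 2.87, 4.21 and 3.98 at 162 µg. All 15 of these mice lay above every control. At 54 µg NRCWE-025 the values were 0.75, 2.27, 2.88, 0.81 and 0.29, and 4 of 5 lay above every control.

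The 14 groups ordered by mean Saa3 ran from 4.70 ± 0.69 (SD, n = 5) at 162 µg NRCWE-030 on day 1, through 2.67 ± 2.12 at 54 µg NRCWE-030 and 2.55 ± 3.00 at 162 µg NRCWE-025, to -3.44 ± 0.60 at 18 µg NRCWE-030 on day 28. The controls averaged -2.62 ± 0.48 on day 1 and -3.29 ± 0.26 on day 28. Saa1 and Saa2 had the same 3 groups with the highest means. For each of the 4 genes, the ranges of mice overlapped in 13 of 13 neighbouring pairs of groups, so the order of neighbours does not exceed the spread between mice.

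At 54 µg NRCWE-030 on day 1, Saa1, Saa2 and Saa3 rose. In limma fits with Benjamini-Hochberg adjustment over all genes, Saa3 was 5.28 ± 0.82 (SE) log2 units above control, which is 38.9-fold (adjusted p = 0.0122). Saa1 was higher by 3.16 ± 0.53 (8.92-fold, adjusted p = 0.0239) and Saa2 by 2.85 ± 0.39 (7.23-fold, adjusted p = 0.00671), each in 5 of 5 mice. Without replicate 4, the lowest of the group, Saa3 was 6.04 and Saa1 3.78 above control, and without any other mouse of the fit Saa3 was at least 4.70 above. Saa4 differed by 0.29 ± 0.18 (adjusted p = 0.722). Thus 3 of 4 Saa genes passed the test where 15 of 18656 genes, or 0.0804%, did so. At 18 µg of NRCWE-030, 0 of 4 passed in limma, 0 of them at an unadjusted p under 0.05, against 0.00536% of all genes, and Saa3 differed by 0.72 ± 0.82 (95% interval -0.99 to 2.43). Between 18 and 54 µg of NRCWE-030 the step was 2.61 ± 0.39 for Saa2 (adjusted p = 0.0254), and 2.94 ± 0.53 for Saa1 and 4.56 ± 0.82 for Saa3 (adjusted p = 0.0776 for both). That is 1 of 4 genes where 0.0107% of all genes passed.

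The step between 18 and 54 µg of NRCWE-030 passed for all 3 genes without replicate 4 at 54 µg, for 2 without replicate 3 at 18 µg, and for none without any 1 of the other 8 mice of the 2 doses. The call of Saa2 at 54 µg against control held in each of the 20 fits that left out 1 mouse (adjusted p at most 0.0317) and under each of 12 other settings (at most 0.0223). Saa1 did not pass without control replicate 5 or without replicate 2 or 5 at 54 µg (adjusted p up to 0.0933 over the 20 fits). Without control replicate 4, Saa2 alone passed at 54 µg, and with the scan day in the fit Saa2 alone passed as well (Saa3 adjusted p = 0.0656, Saa1 0.0926).

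At 162 µg on day 1, given as a description, NRCWE-030 lay 7.31 ± 0.82 log2 units above control for Saa3 (159-fold), 4.78 ± 0.53 for Saa1 (27.5-fold), 3.57 ± 0.39 for Saa2 (11.9-fold) and 0.58 ± 0.18 for Saa4, in a comparison where 1.69% of all genes passed. Saa3, Saa1 and Saa2 held ranks 1, 2 and 4 of 18656 genes by size of increase there. The group means at 54 and 162 µg were 3.07 ± 1.25 and 3.78 ± 0.27 (SD, n = 5) for Saa2, 2.67 ± 2.12 and 4.70 ± 0.69 for Saa3, and 2.99 ± 1.70 and 4.62 ± 0.53 for Saa1.

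At 162 µg NRCWE-025 on day 1, Saa2 rose by 2.65 ± 0.54 log2 units (6.27-fold, adjusted p = 0.0424), in 5 of 5 mice. Saa1 lay 3.23 ± 0.68 above control (adjusted p = 0.0532) and Saa3 5.16 ± 1.10 (adjusted p = 0.0543), and in both genes 4 of 5 mice were above all controls. The count was 1 of 4 genes where 0.209% of all genes passed. In this group 55.4% ± 3.7 (SD, n = 5) of probes were well above background in Cy5, against 61.5% ± 4.2 in the controls, and the part of this in the calls was not tested. Replicate 1 held the low value in all 3 genes. Without it Saa1, Saa2 and Saa3 were higher by 3.96 (adjusted p = 0.00318), 3.26 (0.00151) and 6.34 (0.00329) and 3 genes passed. Likewise 3 passed without replicate 2 at 162 µg or replicate 3 at 54 µg, but 0 passed in 14 of the 20 fits that left out 1 mouse (each control, each mouse at 18 µg, replicate 1 at 54 µg and replicates 3, 4 and 5 at 162 µg).

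At the lower doses of NRCWE-025 limma called 0 of 4 Saa genes on day 1. At 54 µg the differences were 2.48 ± 1.10 for Saa3, 1.19 ± 0.54 for Saa2 and 1.17 ± 0.68 for Saa1 (adjusted p = 0.742, 0.742 and 0.842), 2 of 4 had an unadjusted p under 0.05, and 0% of all genes were called (1219 at an unadjusted p under 0.05). At 18 µg Saa3 differed by -0.25 ± 1.10, 0 of 4 had an unadjusted p under 0.05, and again 0% of all genes were called (956 unadjusted). Between 18 and 54 µg no gene of the array passed either (0%, 564 unadjusted), with 2 of 4 Saa genes at an unadjusted p under 0.05. The comparisons of both materials on day 1 share the 5 control arrays, which also served the comparison that chose the genes.

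**Figure D2:**
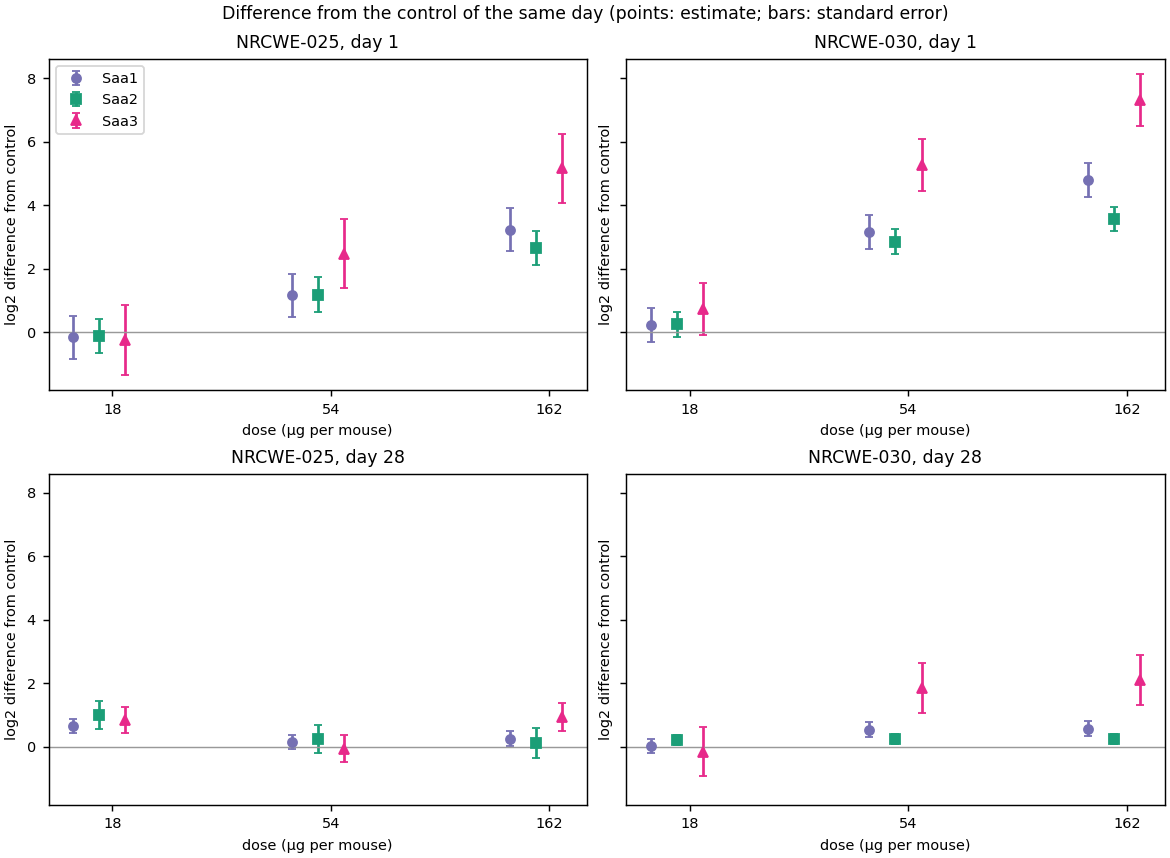
Log2 difference from the control of the same day against dose for Saa1, Saa2 and Saa3, by material and day. Points are estimates and bars are standard errors. On day 1 the differences at 54 µg NRCWE-030 (5.28 for Saa3) are near those at 162 µg NRCWE-025 (5.16), and on day 28 every difference lies below 2.2 log2 units.

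Arrays of the same slide could be compared directly, because several slides held a control and treated mice. Treated minus same-slide control, Saa3 was 3.60 to 7.67 higher at 54 µg NRCWE-030 in 3 of 3 pairs, 7.32 to 8.71 at 162 µg NRCWE-030 in 2 of 2, and 0.50 to 4.43 at 162 µg NRCWE-025 in 2 of 2. Saa2 was 2.34 to 4.12, 3.76 to 4.13 and 0.15 to 2.47 higher in the same pairs. At 54 µg NRCWE-025, Saa3 was 1.91 to 4.28 higher in 2 of 2 pairs, and at 18 µg NRCWE-030 2.17 to 3.08 higher in 2 of 2 pairs, whereas the difference of group means there was 0.72. With the slide as a fixed block, Saa3 was 5.85 above control at 54 µg NRCWE-030 (adjusted p = 0.0462) and 4.07 at 162 µg NRCWE-025 (adjusted p = 0.407). Saa2 was 3.09 above control at 54 µg NRCWE-030 (adjusted p = 0.0116) and 2.05 at 162 µg NRCWE-025 (adjusted p = 0.412). The slides of NRCWE-025 at 162 µg that held a control carried 2 of its 5 mice. Replicate 4 at 54 µg NRCWE-030, the lowest of its group in Saa3, was on a slide without a control. So were replicates 2, 4 and 5 at 18 µg NRCWE-030, which had the lowest Saa3 values of that group. The pairs therefore leave these mice out.

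At equal dose, NRCWE-030 lay above NRCWE-025 on day 1 in Saa1, Saa2 and Saa3, but none of the tested differences passed. At 54 µg the difference was 1.99 for Saa1 (95% interval 0.93 to 3.05, adjusted p = 0.244), 1.67 for Saa2 (0.74 to 2.59, adjusted p = 0.334) and 2.80 for Saa3 (0.92 to 4.69, adjusted p = 0.558). These intervals exclude 0 for 3 of 4 genes before adjustment, and 0.059% of all genes passed. Leaving out replicate 4 at 54 µg NRCWE-030 gave 2 calls, Saa1 at 2.61 (adjusted p = 0.0135) and Saa2 at 2.17 (0.0278), and leaving out replicate 3 at 54 µg NRCWE-025 gave 1. At 18 µg the differences were 0.37 for Saa1, 0.37 for Saa2 and 0.97 for Saa3 (interval -0.91 to 2.85), with 0 of 4 called and 0 at an unadjusted p under 0.05, against 0.0482% of all genes. At 162 µg, as a description, NRCWE-030 exceeded NRCWE-025 by 1.55 for Saa1, 0.92 for Saa2 and 2.15 for Saa3.

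On day 28 the controls differed from the day 1 controls by -0.68 ± 0.94 for Saa3, -0.34 ± 0.53 for Saa1 and -0.24 ± 0.46 for Saa2, and 0 of 4 genes were called or had an unadjusted p under 0.05 (0.0375% of all genes were called). The day 28 controls had Saa3 values of -3.50, -3.31, -3.55, -2.89 and -3.22. After NRCWE-030 the mice had -2.38, 0.02, -0.63, -3.90 and 0.99 at 162 µg and 0.66, -0.63, -0.52, -3.82 and -2.93 at 54 µg. In both doses 3 mice lay between 2.66 and 4.28 log2 units above the control mean, the others lay within 1 unit of it, and 1 mouse of each dose was below all controls.

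In limma, 0 of 4 Saa genes were called at any dose on day 28. Saa3 differed by 2.11 ± 0.78 at 162 µg NRCWE-030 (adjusted p = 0.522) and by 1.85 ± 0.78 at 54 µg (adjusted p = 0.737). At 162, 54 and 18 µg of NRCWE-030, 2, 2 and 0 of the 4 had an unadjusted p under 0.05, while 0.0965%, 0.0536% and 0.118% of all genes were called. With the slide as a fixed block the Saa3 difference at 54 µg was 3.20 ± 0.64 (adjusted p = 0.0527), and the same-slide differences were 2.69 to 4.16 in 3 of 3 pairs at 54 µg and 1.12 to 3.58 in 3 of 3 at 162 µg. The lowest mice were not in these pairs. Replicates 4 and 5 at 54 µg (-3.82 and -2.93) and replicate 4 at 162 µg (-3.90) were on slides without a control. After NRCWE-025, Saa3 differed by 0.94 ± 0.44 at 162 µg, -0.05 ± 0.42 at 54 µg and 0.84 ± 0.42 at 18 µg, with adjusted p of 0.574 or more. At 162, 54 and 18 µg, 1, 0 and 2 of the 4 genes had an unadjusted p under 0.05, against 0.0161%, 0.0268% and 0.059% of all genes called. Steps from 18 to 54 µg on day 28 gave 0 of 4 calls in either material with 2 of 4 at an unadjusted p under 0.05, and 0% of all genes were called (341 unadjusted for NRCWE-025 and 937 for NRCWE-030).

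Material differences on day 28 were not called for any Saa gene. At 54 µg NRCWE-030 lay 1.90 above NRCWE-025 in Saa3 (interval 0.02 to 3.78, adjusted p = 0.632), and 0.0804% of all genes were called. At 162 µg Saa3 differed by 1.18 (-0.82 to 3.17), with 0.0161% of all genes called, and at 18 µg by -0.99 (-2.87 to 0.89), with 0% called and 1234 at an unadjusted p under 0.05. At 54 µg 1 of 4 Saa genes, and at 162 and 18 µg 0 of 4, had an unadjusted p under 0.05.

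Whether an effect differed between day 1 and day 28 was tested as the difference of the 2 effects. For NRCWE-025 at 162 µg the effect on day 1 exceeded that on day 28 by 2.98 ± 0.77 for Saa1 (adjusted p = 0.0899), 2.52 ± 0.68 for Saa2 (0.111) and 4.22 ± 1.37 for Saa3 (0.206), so that 0 of 4 passed, 3 of them with an unadjusted p under 0.05, where 0.059% of all genes passed. For NRCWE-030 at 54 µg it exceeded it by 2.61 ± 0.75, 2.60 ± 0.66 and 3.44 ± 1.33 (adjusted p = 0.211, 0.112 and 0.506), also with 0 of 4 called, 3 at an unadjusted p under 0.05, and 0.0482% of all genes called. Without replicate 1 at 162 µg NRCWE-025 on day 1, or replicate 4 at 54 µg NRCWE-030 on day 1, 2 genes passed in the respective test. At 18 µg of NRCWE-025, 54 µg of NRCWE-025 and 18 µg of NRCWE-030, 0 of 4 were called or had an unadjusted p under 0.05, against 0.0429%, 0.00536% and 0.0107% of all genes called. For NRCWE-030 at 162 µg, as a description, the 2 effects differed by 4.21 for Saa1, 3.32 for Saa2 and 5.20 for Saa3.

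Saa2 and Saa3 were also compared mouse by mouse, with no test. Counting mice more than 1 log2 unit above the control mean of their day, a limit chosen after the values were seen, 19 of 30 treated mice on day 1 were high in Saa3 and 15 in Saa2, and all 15 of the latter were high in both. The 4 mice high in Saa3 alone were 2 given 18 µg NRCWE-030, 1 given 54 µg NRCWE-030 and 1 given 54 µg NRCWE-025. On day 28, 10 of 29 treated mice were high in Saa3 and 3 in Saa2, and 0 in both. The 10 were 3 each at 54 and 162 µg NRCWE-030 and 2 each at 18 and 162 µg NRCWE-025. The split depends on the limit. Of the mice high in Saa3, replicate 1 at 54 µg and replicate 5 at 162 µg NRCWE-030 lay 0.66 and 0.63 above the control mean in Saa2, and replicates 3 and 5 at 18 µg NRCWE-025, high in Saa2, lay 0.77 and 0.73 above it in Saa3, in each case above all 5 controls.

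The 3 day 28 mice high in Saa2 were replicates 3 and 5 at 18 µg NRCWE-025, with log2 ratios of 3.07 and 1.75 where the other 3 had -0.13, 0.05 and 0.10, and replicate 3 at 54 µg NRCWE-025 with 1.14. Their mean log2 ratio over 8 hepatocyte markers was 0.94, 0.58 and 0.53, against 0.07 to 0.44 in the controls of that day and 0.12 to 0.89 in the other mice of the same 2 groups. Of those markers Ttr was well above background on 3 of 69 arrays and Alb on 67. The mean of 8 heart muscle markers was 2.86, 3.14 and 3.81 in the same 3 mice, against 1.23 to 2.79 in the controls, and that of 10 fat markers 2.28, 1.79 and 2.63, against 0.99 to 3.77. Their part in the Saa2 values was not tested.

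**Figure D3:**
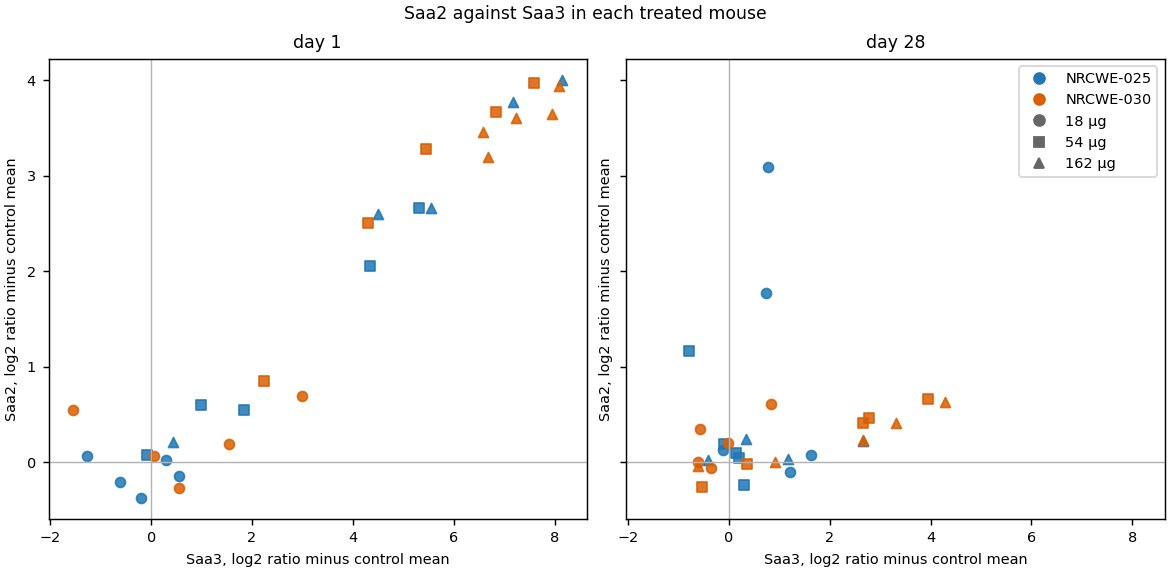
Saa2 against Saa3 in each treated mouse, both as log2 ratio minus the control mean of the day. Colours are materials and symbols doses. On day 1 the 15 mice more than 1 unit above control in Saa2 are all so in Saa3, whereas on day 28 none of the 10 mice over 1 unit in Saa3 is over 1 unit in Saa2, although some lie above all controls in both.

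The probes of Saa1 were read apart. At 54 µg NRCWE-030 on day 1 the differences were 2.90 for A_51_P361650 and 3.41 for A_52_P318673, and at 162 µg 4.43 and 5.13. On day 28 they were 0.23 and 0.86 at 54 µg NRCWE-030 and 0.18 and 0.97 at 162 µg, further apart than on day 1 relative to their size, and A_51_P361650 was well above background on 0 of 5 controls of day 28. In the fits of 40831 probes, the Saa2 probe (2.85, adjusted p = 0.0130) and the Saa3 probe (5.28, adjusted p = 0.0199) passed at 54 µg NRCWE-030 and both Saa1 probes lay just outside (adjusted p = 0.0504 for each), which is 2 of 6 Saa probes where 0.0196% of all probes passed. At 162 µg NRCWE-025 0 of 6 passed, with adjusted p between 0.0595 and 0.0692 for the Saa1, Saa2 and Saa3 probes, where 0.0931% of all probes passed. Because Saa1 and Saa2 transcripts are near-identical, a probe of either may bind both, and the probes' sequences were not analysed here.

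Saa4 was dim. Its probe A_51_P142529 was well above background on 0 of 5 controls of day 1 and on 5 of 5 mice at 162 µg NRCWE-030, where it was at least 1.63-fold higher in the lung channel. At 54 µg NRCWE-030 it was measured in 3 of 5 mice and at 162 µg NRCWE-025 in 2 of 5. The group means there were 1.24-fold and 1.26-fold the control limit. Probe A_52_P404329 was measured in 3, 2 and 1 of 5 mice of these groups, with means 1.39-fold, 1.19-fold and 1.22-fold the control limit. That limit was, for each control array, the lowest signal of any probe well above background or the Saa4 signal itself, whichever was higher. Where some mice were not above background, the group mean includes them and the ratio is no lower bound. As a gene, Saa4 differed by 0.29 (95% interval -0.08 to 0.67) at 54 µg NRCWE-030 and 0.32 (-0.003 to 0.64) at 162 µg NRCWE-025, neither called. The size depended on the processing. Over 12 other settings it ran from 0.27 to 2.02 at 54 µg NRCWE-030 and from 0.12 to 1.83 at 162 µg NRCWE-025. The limma adjusted p was at least 0.302 and 0.270. At 162 µg NRCWE-030, as a description, it ran from 0.55 to 2.99. In the latter group replicate 4 had 1.13 and the others at most 0.16. The Saa4 log2 ratios of 162 µg NRCWE-030 were 1.29, 0.65, 0.38, 0.19 and 0.19, above the control range of -0.20 to 0.08.

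The reference channel is meant to be the same RNA on each array, yet its signal at the Saa2 probe followed the lung signal. At 162 µg NRCWE-030 on day 1 the Cy3 signal was 294.5 to 909 against 78.7 to 96.6 in the controls, and its median was 3.87 times the control median. The corresponding ratio of medians was 2.26 for the Saa1 probe A_51_P361650, 1.67 for A_52_P318673 and 1.34 for Saa3, while in Cy5 it was 34.7, 31.9, 45.1 and 175 for Saa2, the Saa1 probes in that order and Saa3. A higher reference signal lowers the log2 ratio. With the lung channel alone, as a description, the differences at that dose were 5.40 for Saa2, 5.37 for Saa1 and 7.39 for Saa3, against 3.57, 4.78 and 7.31 with the ratio. At the Saa2 probe the Cy3 median was also 1.76 times the control median at 54 µg NRCWE-030 on day 1, with a highest value of 418. At 162 µg NRCWE-025 on day 1 it was 1.52 times the control median, with a highest value of 654. The source of the reference signal, and its part in the Saa2 differences and calls, was not tested.

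**Figure D4:**
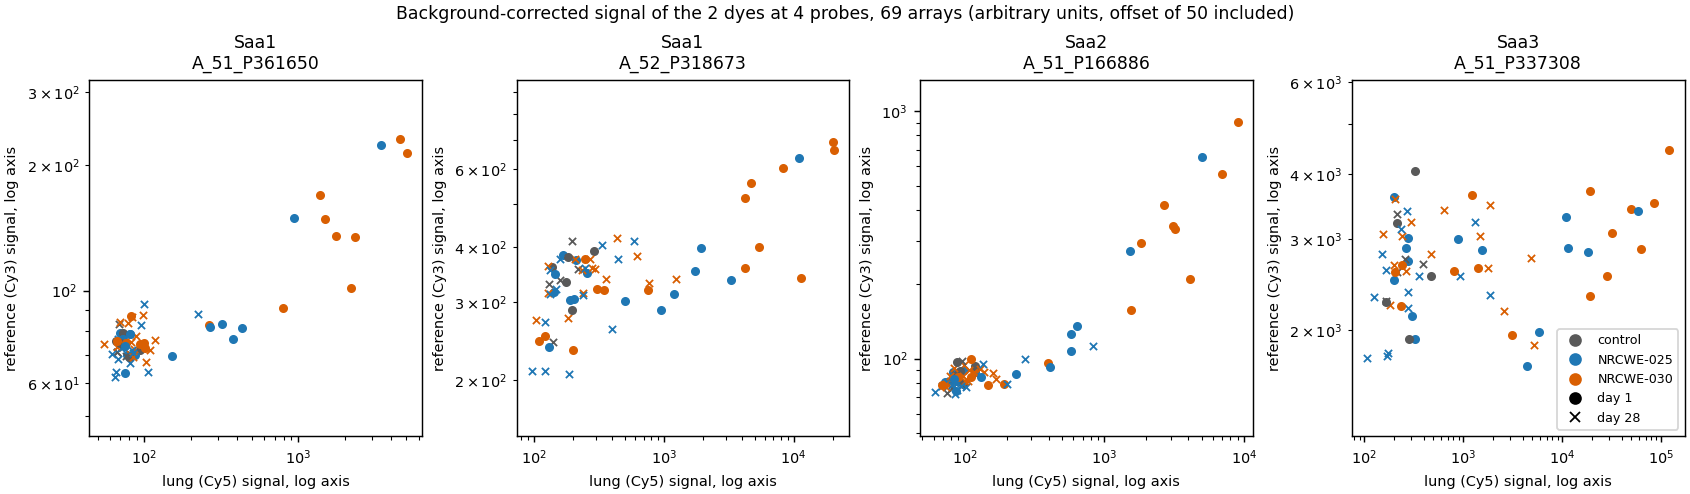
Background-corrected reference (Cy3) signal against lung (Cy5) signal at the Saa1, Saa2 and Saa3 probes on the 69 arrays, log axes, arbitrary units. At the Saa2 probe the Cy3 signal of the 5 mice at 162 µg NRCWE-030 on day 1 (294.5 to 909) lies above the 5 day 1 controls (78.7 to 96.6).

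The genes whose pattern over the 69 arrays was most like that of Saa3 were Timp1, an inhibitor of matrix metalloproteinases (Pearson r = 0.959, Spearman rho = 0.882), Orm2 (0.947 and 0.769) and Orm1 (0.923 and 0.777), which encode acute phase glycoproteins, and Tnfrsf9, a tumour necrosis factor receptor family member (0.911 and 0.841). Lcn2, a siderophore-binding protein (0.898 and 0.798), Alpl, an alkaline phosphatase (0.894 and 0.810), Cstb, a cysteine protease inhibitor (0.889 and 0.775), Noxo1, a subunit of an NADPH oxidase (0.876 and 0.798), Tmem176a (0.875 and 0.793) and Ccl2, a monocyte chemokine (0.872 and 0.869), completed the 10. After the group means were taken out, r with Saa3 was 0.867 for Timp1, 0.836 for Lcn2, 0.875 for Noxo1 and 0.693 for Alpl, the lowest of the 10. The points share the 14 groups, the slides and the arrays, so the values describe likeness and carry no p.

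The other genes of the acute phase pathway were described in 7 lists of 87 measured genes. In limma, 0 of the 87 passed with NRCWE-025 at any dose or day, although 27 had an unadjusted p under 0.05 at 162 µg on day 1, where 12.3% of all genes did, and 21 at 54 µg, where 6.53% did. In the other 4 comparisons 6 to 10 did, against 5.12% to 8.89% of all genes. The lists share Alb, Ttr, Fgb and Apoa1 with the hepatocyte markers read below. The median difference of those markers at 54 µg NRCWE-025 on day 1 was 0.93. Their part in the count of 21 was not tested. With NRCWE-030, 0 passed on day 28 (5 to 10 unadjusted, against 6.52% to 9.03% of all genes) or at 18 µg on day 1 (8 unadjusted, against 7.3%). At 54 µg NRCWE-030 on day 1, Lcn2 alone passed, higher by 2.43 ± 0.34 (adjusted p = 0.00671, 5 of 5 mice above all controls). At 162 µg NRCWE-030, 13 were higher and 1 lower, where 1.69% of all genes passed. The lists were chosen with earlier results of these data known, so these calls are no independent support for the Saa values.

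Of the cytokines that induce Saa genes, Il1b (1.27 ± 0.26, adjusted p = 0.0154) and Il6 (1.21 ± 0.29, adjusted p = 0.0371) were 2 of 9 that rose at 162 µg NRCWE-030. Over all genes 1.69% passed in this comparison and 12.9% had an unadjusted p under 0.05. Of the 10 cytokine receptors 0 passed, with 1 at an unadjusted p under 0.05. Of 16 signal transducers and transcription factors, 3 rose by less, Nfkbiz, an atypical NF-kappa B regulator (0.65 ± 0.13), Cebpb, a C/EBP factor (0.55 ± 0.14), and Myd88, an adaptor of interleukin-1 and Toll-like receptors (0.42 ± 0.10). The feedback inhibitors Il1r2, a decoy receptor (1.36 ± 0.19), and Il1rn, the receptor antagonist (0.92 ± 0.11), were 2 of 9 that rose. Of 8 receptors that bind serum amyloid A 0 passed (3 unadjusted, list median -0.06), with Scarb1, a lipoprotein receptor, at 0.54 ± 0.14 (adjusted p = 0.0600) and Fpr1 at -0.96 ± 0.28 (adjusted p = 0.0984), both named after their values were seen. Of 9 proteins and enzymes of high-density lipoprotein, Pon1, an antioxidant esterase, fell by 1.34 on the log2 scale (SE 0.31).

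The list of other acute phase proteins, the largest list, had 6 of 26 called, beside 2 of 9 for the inducing cytokines and 2 of 9 for the feedback inhibitors. Its median difference was 0.43, against 0.50 for the feedback inhibitors and 0.005 over all genes. Orm2 rose by 3.76 ± 0.51 (adjusted p = 0.000707), Lcn2 by 3.07 ± 0.34 (0.000105), Orm1 by 2.82 ± 0.35 (0.000214) and Hpx, the haem scavenger hemopexin, by 1.97 ± 0.42 (0.0197), each with 5 of 5 mice above all controls. At 162 µg NRCWE-025 the same 4 genes differed by 2.22 ± 0.60, 1.82 ± 0.61, 1.50 ± 0.42 and 1.49 ± 0.32, with adjusted p of 0.118, 0.201, 0.134 and 0.0543.

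**Figure D5:**
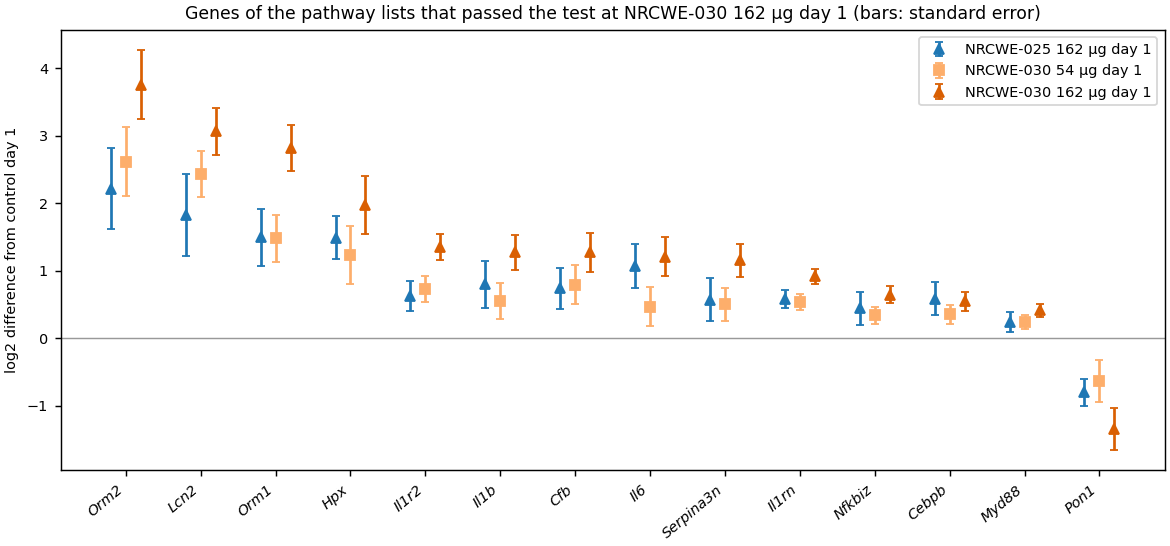
Log2 difference from the day 1 control, with its standard error, for the 14 listed genes that passed the test at 162 µg NRCWE-030, shown also at 54 µg NRCWE-030 and 162 µg NRCWE-025. Orm2, Lcn2 and Orm1 have the largest differences at 162 µg NRCWE-030 (3.76, 3.07 and 2.82), and Pon1 is the only gene below 0.

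Markers of other cell types were read beside these results. At 162 µg NRCWE-030 on day 1, 1.69% of all genes were called and 12.9% had an unadjusted p under 0.05. The mean over 12 neutrophil markers was 1.63 to 2.18 there, against 1.35 to 1.82 in the controls. Of the 12, 2 were called, Csf3r (1.25 ± 0.20) and Il1r2, which is the same call as among the feedback inhibitors. The neutrophil markers Elane, Ngp and Camp were well above background on 1, 20 and 33 of 69 arrays. Of 11 macrophage and monocyte markers, Msr1 was called (0.98 ± 0.18), and the list mean was 2.45 to 2.71 against 2.24 to 2.77. Of 10 fat markers Cidec was called and fell by 1.36 (SE 0.31), with a median list mean of 0.56 against 1.43. The median difference of the fat list was below 0 at every dose of both materials on day 1. It ran from -0.74 at 18 µg NRCWE-025 to -0.44 at 18 µg NRCWE-030, and the highest control of that day had a list mean of 3.44. Of 8 hepatocyte markers 0 were called (0 unadjusted), and their mean was 0.09 to 0.48 at 162 µg NRCWE-030 against 0.10 to 0.30 in the controls. At 162 µg NRCWE-025 the hepatocyte mean was 0.11 to 1.10 and the fat mean 0.27 to 1.71.

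Of the 12 comparisons with control, the hepatocyte list had its highest median difference at 54 µg NRCWE-025 on day 1, where 0 of 8 were called but 5 had an unadjusted p under 0.05 (6.53% of all genes) and that median was 0.93. Their mean was 1.46, 0.90, 0.20, 2.45 and 1.67 in replicates 1 to 5, against 0.10 to 0.30 in the controls. Replicate 3, the highest of the group in Saa1, Saa2 and Saa3, was the lowest in hepatocyte markers. That mouse was named after its values were seen, and the part of hepatocyte markers in the Saa values was not tested. At 18 µg NRCWE-025 on day 28, 5 of 8 had an unadjusted p under 0.05 (8.89% of all genes), with a list median of 0.23.

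Neutrophil markers were also read on day 28. At 54 and 162 µg NRCWE-030 the list medians were -0.46 and -0.38, 7 and 6 of 12 had an unadjusted p under 0.05 (6.52% and 7.51% of all genes), and Mmp9, a neutrophil protease, fell by 0.96 (adjusted p = 0.0168) and 1.11 (adjusted p = 0.00289), the 1 marker called at each dose. The list mean was at most 1.56 and 1.66, against 1.43 to 2.26 in the controls, and the medians of the other 4 groups of that day were also below 0, from -0.44 to -0.27. The part of these cell types in the Saa values was not tested.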

How the data were processed

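The authors hybridised lung RNA (Cy5) and reference RNA (Cy3) to 69 arrays and deposited Agilent Feature Extraction 11.0.1.1 output with spot intensity in both channels, a log10 ratio and quality flags, which are score values of 0 or 1, and a table of processed log2 values whose scale, centring and filters are not given in the sources used here. The deposited local backgrounds that the software marked as outliers were replaced by the array median, followed by normexp (offset 50) and loess in limma 3.58.1 (R 4.3.3), with no scaling between arrays. Spots were combined into probes, and probes into genes, by the median. RefSeq named 27479 of 41174 probes (66.7%) and 93 symbols without full values were left out.

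A limma fit per material and day (controls and 3 doses) gave differences from control, and 1 fit of 14 groups gave material and day differences. A gene was called at an adjusted p under 0.05. Each array is 1 mouse. The Saa genes, the lists and the tests were chosen with earlier results of these data known. Named were the Saa genes and probes, the 10 genes most like Saa3 by Pearson correlation, and called members of the lists, at most 4 of a list at 162 µg NRCWE-030 on day 1. Beyond that rule, markers are named from their lists, and Scarb1 and Fpr1 were chosen after their values were seen. Scripts were tested on simulated data. Alternatives covered background, scaling, deposited values, dim probes, slide, scan day and single arrays. Arrays carry no read depth, and the number of mice limits precision. Columns of the scanner's own p-values and errors were not used.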

Additional observations from a re-analysis of the deposited data

Results flagged for a closer look

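Among 56 combinations of Saa gene and group, 2 held an array far from the others by Dixon's ratio, where chance gives about 1 in 20. Saa1 in replicate 1 of 18 µg NRCWE-030 on day 28 had a log2 ratio of 0.051, with the nearest of the other 4 mice at -0.52. Saa4 in replicate 4 of 162 µg NRCWE-025 on day 1 had 1.13, with the nearest at 0.16, and the same mouse had the highest Saa3 value of its group (5.54). The reference channel, which the comparisons use only as a denominator, carried a signal above all day 1 controls in each of the 5 mice at 162 µg NRCWE-030 on day 1, with a median 3.87 times the control median at the Saa2 probe and 2.26 times at the Saa1 probe A_51_P361650.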

How the results depend on the processing

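No paired analysis was possible because the labels number the samples in 1 run through the series and no group shares a number with another, so that replicate numbers pair no mice. Slide and scan day were used as blocks in its place, and arrays of 1 slide were compared directly. Of 1041 differences recomputed under settings other than leaving out an array, 976 counted as unchanged, and of 3699 with 1 array left out 3632 did. A tested difference was unchanged if it kept its direction and its side of the threshold. One given as a description was unchanged if it moved by less than the largest SD of its groups. At 162 µg NRCWE-025 on day 1, where 1 Saa gene was called, the count was 0 with backgrounds not replaced, no background correction, the scanner's log ratio, the deposited table, slide as a fixed block or scan day, 2 with quantile scaling, and 3 with Cy5 alone, dim probes left out, the brightest probe, slide as a random block or 1 fit of all groups (0 to 3 without 1 array). Of the pathway genes, 0 were called there, but 3 with quantile scaling, 1 with Cy5 alone, 2 with dim probes left out or the brightest probe and 4 with slide as a random block or 1 fit (0 to 6 without 1 array). At 54 µg NRCWE-030 the 3 Saa calls fell to 1 with scan day (1 to 3 without 1 array), and the 1 pathway call became 2 with backgrounds not replaced, quantile scaling, Cy5 alone, slide fixed or scan day, 3 with dim probes left out and 4 with the scanner's ratio, slide random or 1 fit (1 to 4 without 1 array). At 162 µg NRCWE-030 the 14 pathway calls became 23 with slide random, 7 with slide fixed and 5 with scan day (6 to 20 without 1 array). The dose step of NRCWE-030 had 1 call, 0 with Cy5 alone, slide fixed or scan day and 3 with slide random or 1 fit (0 to 3 without 1 array). The day differences, with 0 calls, had 2, 1 and 2 for NRCWE-025 at 162 µg and 1, 1 and 1 for NRCWE-030 at 54 µg with slide random, slide fixed and scan day (0 to 2 without 1 array for each), and the material difference at 54 µg on day 1 had 0 to 2 without 1 array. With slide random 4 Saa probes were called at 162 µg NRCWE-025 and 4 at 54 µg NRCWE-030 (0 to 4 without 1 array for each). The direction turned only in uncalled small differences. On day 28 these were Saa2 at 54 µg NRCWE-025 (-0.091 with slide fixed or scan day), Saa3 there (0.40 with backgrounds not replaced, 0.000840 with the deposited table, 0.025 with slide random, 0.29 with slide fixed or scan day, -0.14 to 0.13 without 1 array), Saa1 at 162 µg NRCWE-025 (-0.013 with slide fixed or scan day) and Saa2 there (-0.15 with slide random, -0.76 with slide fixed or scan day). The material difference of Saa2 on day 28 became -0.00796 with quantile scaling, -0.14 with slide random, -0.31 with slide fixed and -0.26 with scan day at 54 µg (-0.12 to 0.23 without 1 array) and -0.066 with slide fixed and -0.024 with scan day at 162 µg. At 18 µg NRCWE-030 the day difference became -0.11 for Saa1 with slide fixed and -0.19 for Saa2 with the scanner's ratio (-0.086 to 0.16 without 1 array). Without 1 array, Saa1 at 18 µg NRCWE-030 on day 28 ran from -0.11 to 0.074, the Saa2 dose step of NRCWE-030 on day 28 from -0.069 to 0.16 and Saa3 at 18 µg NRCWE-025 on day 1 from -0.45 to 0.0045. The causes were not tested. Depth does not apply to arrays, and dim signal limits Saa4 and the Saa1 probe A_51_P361650 in controls.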
